A study of Mus musculus with 2 samples.

Results

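Muscle mimetic cells are medullary thymic epithelial cells (mTEC) that carry transcripts of skeletal muscle. Here they are the cells to which the authors' deposited cell table gave the class Muscle, 121 of 9185 annotated cells (1.32%) in 15 classes. The cells came from thymi of C57BL/6 mice, were depleted of CD45+ cells and sorted as mTEClo without surface Pdpn or CD104. 7 samples shared 1 run of 10x Genomics 3' v3.1 droplets, and a hash tag, an anti-H2-Kb antibody with a DNA barcode, marked the sample of each cell. 3 samples, Hnf4ctrl, were Foxn1(cre/+) Hnf4a(fl/+) Hnf4g(+/-) and are called control, although all of them lack 1 working copy of Hnf4g and carry the cre and 1 floxed Hnf4a allele. 4 samples, Hnf4dTEC, were Foxn1(cre/+) Hnf4a(fl/fl) Hnf4g(-/-) and are called mutant. Foxn1-cre acts in thymic epithelium, whereas the Hnf4g allele is null in all cells. The labels give no age and do not say whether each sample was 1 animal, so p-values measure only the spread between these samples, which may be technical.

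mTEC display proteins of peripheral tissues to developing T cells, and mimetic cells among them take on the transcription factors and gene programs of particular tissues. Muscle-like cells of the thymus have long been known as myoid cells, and their acetylcholine receptor is of interest because antibodies to it cause myasthenia gravis. In embryonic muscle, Myf5 and Myod1 commit precursors, Myog drives differentiation, myoblasts fuse through Mymk and Mymx, and the sarcomere is then built from thick myosin and thin actin filaments.

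Muscle cells held 2399649 UMIs in all (a UMI marks 1 captured RNA molecule). Their median was 18951 UMIs and 4880 genes per cell, against 12970 UMIs and 4141 genes in the 9064 other cells. Their mitochondrial share had a median of 1.32%, against 1.58%. In 0 of them was the most abundant hash tag that of another sample, and the doublet caller Scrublet marked 3.

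The first question was how many Muscle cells each sample held. Control samples 1, 2 and 3 held 4, 7 and 31, which were 0.499%, 0.765% and 1.96% of their annotated cells. Mutant samples 1, 2, 3 and 4 held 16, 10, 15 and 38, or 0.969%, 0.726%, 1.01% and 2.77%. The groups overlapped, with a wide spread within each, and the 95% Wilson intervals of the single shares, which cover counting error only, ran from 0.194 to 1.28% in control sample 1 and from 2.02 to 3.78% in mutant sample 4. Mean shares were 1.08 ± 0.780% (SD, n = 3) for control samples and 1.37 ± 0.942% (SD, n = 4) for mutant ones. The log2 fold change of mutant over control was 0.22 (SE 0.56, edgeR adjusted p = 0.972 over 15 classes), and the two-sided exact permutation p was 0.686 (0.0286 is the smallest that 35 splits allow). Its direction rested on single samples, since the log2 fold change was -0.38 without mutant sample 4 and -0.09 without control sample 1. Without control sample 3 it kept its sign and was 1.07. None of these passed the test.

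**Figure D1:**
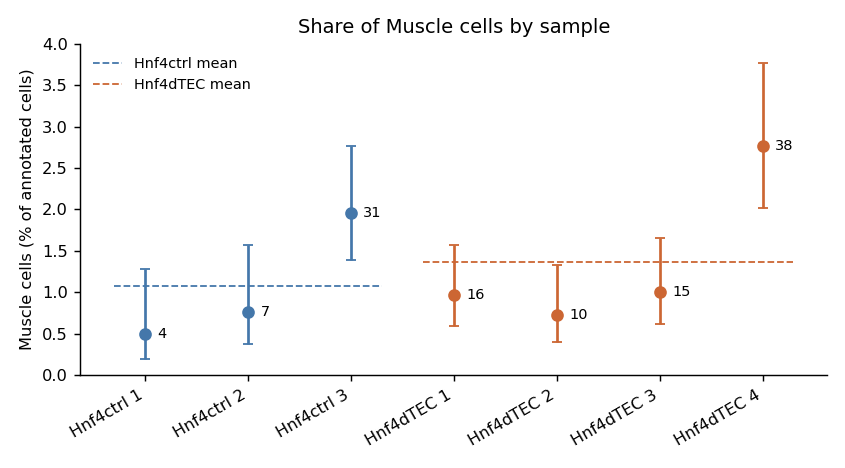
Share of Muscle cells among annotated cells (y axis, percent) in the 7 samples (x axis). Points are samples with 95% Wilson intervals, numbers beside them are Muscle cells, and dashed lines are group means; control sample 3 (1.96%) and mutant sample 4 (2.77%) stand above the other samples of their genotype.

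The class was checked against 6 muscle markers. Myog, the transcription factor of muscle differentiation, was at 1574 CPM (UMIs of the gene per 1000000 UMIs) in Muscle cells and 21.3 CPM in all other cells. Actc1, an actin of embryonic muscle and heart, was at 836 against 3.32 CPM, and Ckm, the muscle creatine kinase, at 600.5 against 3.12 CPM. Ttn, the giant spring protein of the sarcomere, was at 492 against 40.7 CPM, Des, the muscle intermediate filament, at 162 against 7.74 CPM, and Chrna1, the alpha subunit of the muscle acetylcholine receptor, at 32.9 against 4.35 CPM. All 6 markers were highest in Muscle among the 15 classes, with the next highest at 36.9 CPM for Myog (Tuft), 144 CPM for Ttn (TA) and 8.002 CPM for Chrna1 (Tuft). Cell classes are usually formed from the same transcripts, and the files do not say otherwise. Transcripts of Muscle cells against the rest are therefore described throughout, without a test. Only the hash tag, an antibody measure, was tested against other cells.

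**Figure D2:**
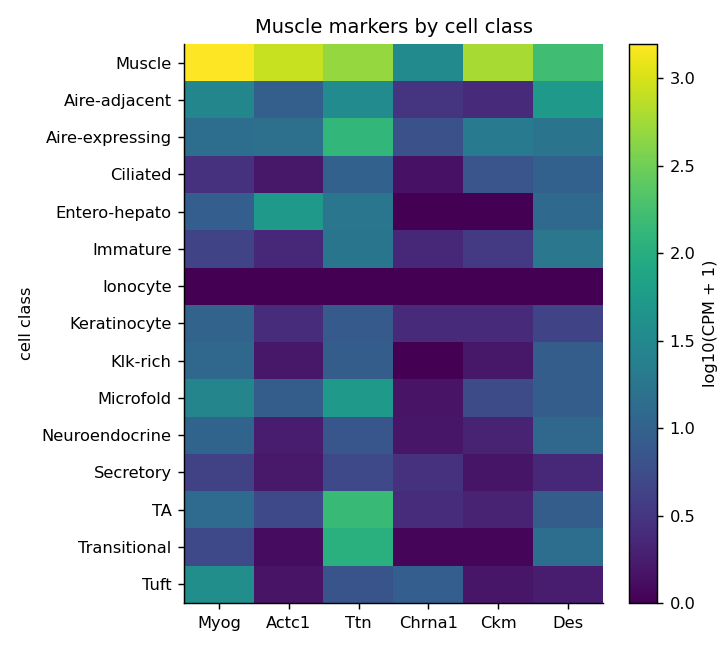
Level of the 6 markers (x axis) in each of the 15 cell classes (y axis), as log10(CPM + 1) of UMIs summed over all 7 samples. The Muscle row is the brightest in every column, from 32.9 CPM for Chrna1 to 1574 CPM for Myog.

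The markers did not mark every cell of the class. Of 121 Muscle cells, 93 had a UMI of at least 1 of the 6, 47 had at least 3 (38.8%, against 0.530% of other cells) and 14 had all 6. The other 28 had none of the 6, although 19 of these had a UMI of Rbm24, an RNA-binding protein of muscle splicing. Myog was detected in 74.4% of Muscle and 12.3% of other cells, and Rbm24 in 84.3% and 5.35%. After thinning each cell to 5000 UMIs, which left 120 Muscle and 8554 other cells, these shares were 72.5% and 6.82% for Myog and 65.8% and 2.54% for Rbm24. The share in other cells includes any free RNA in the droplets.

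Across samples, Myog was detected in all 7, at 580, 1269 and 1594 CPM in control samples 1 to 3 and at 1630, 1055, 1612 and 1783 CPM in mutant samples 1 to 4. Control sample 1, with 4 Muscle cells, was lowest. Actc1 was at 0, 694 and 803 CPM in control and at 1684, 553, 586 and 781 CPM in mutant samples. Ckm was at 0, 104 and 677 CPM in control and at 640.0, 11.3, 483 and 838 CPM in mutant samples. Chrna1 was at 0, 7.46 and 28.6 CPM in control and at 35.03, 22.6, 25.02 and 48.0 CPM in mutant samples. Rbm24 was within 256 to 389 CPM in the 7 samples. In control sample 1, Actc1, Ckm, Ttn and Chrna1 all had 0 UMIs. Ttn had UMIs in 5 of the 7 samples.

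Of 122 genes in 9 lists of muscle genes, 120 had at least 10 UMIs over all cells, and 72 of these (60%) were at least 2-fold higher in Muscle than in other cells, counting 1 CPM added to both levels. Over all 28119 genes with that many UMIs, 1221 (4.34%) reached this ratio. The median log2 ratio was 1.70 over the lists and -0.24 over all genes. 6 list members were at 0.5 of the other cells' level or less, against 5252 of all 28119 genes. 8 list members had no UMI in Muscle cells.

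**Figure D3:**
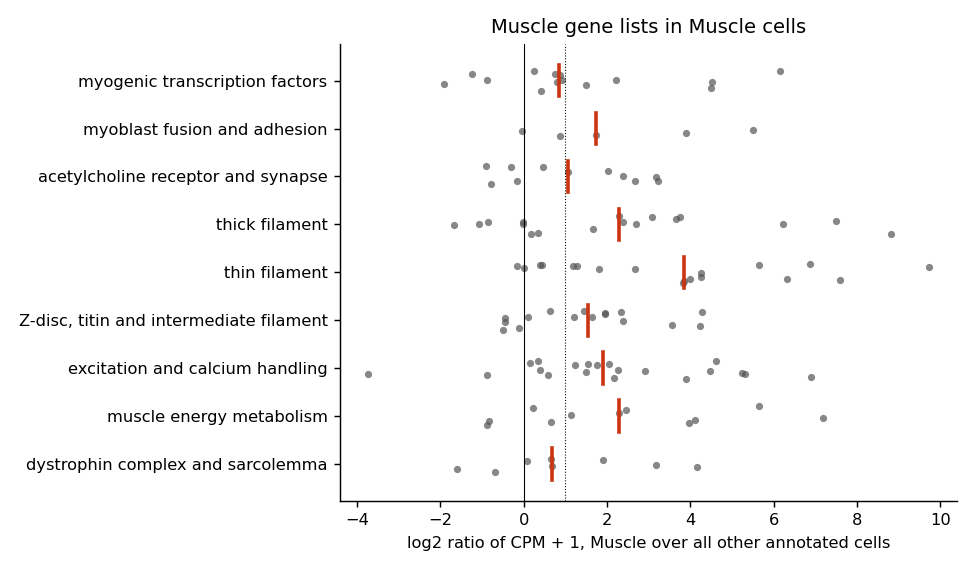
Each point is 1 gene of a muscle list (y axis) with its log2 ratio of CPM + 1 in Muscle over all other annotated cells (x axis); height within a row is random, red bars are list medians, and the dotted line is a 2-fold ratio. Thin filament genes have the highest median (3.84) and the dystrophin complex the lowest (0.67).

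Among 14 transcription factors, 5 were at least 2-fold higher: Myog, Myf6, Mef2a, Mef2c and Tead4. Mef2c, a partner of the myogenic factors, was at 92.9 against 3.09 CPM, and Myf6, a factor of late differentiation, at 32.9 against 0.496 CPM in 15 cells. The factors of earlier precursors were near or at the floor. Myod1 and Pax7, the latter of muscle stem cells, had 0 UMIs, which allows up to 1.25 CPM or 2.48% of cells with a UMI, and Myf5 had 1 UMI. Eya1, a cofactor of the muscle lineage, was shared with the other classes, at 520 CPM in Muscle and 387 CPM in other cells.

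In the fusion list, 3 of 5 were at least 2-fold higher. Mymx, a small membrane protein of fusion, was at 202 against 3.44 CPM, and Mymk, its partner, at 30.4 against 1.12 CPM in 14.9% and 0.794% of cells. Cdh15, a cadherin of myoblasts, was at 3.33 and 1.37 CPM.

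In the list of the acetylcholine receptor and synapse, 6 of 11 were at least 2-fold higher. All 5 subunit genes of muscle were detected. Chrnd was at 26.3 against 1.91 CPM and Chrnb1 at 17.1 against 3.43 CPM. Chrng, the fetal subunit, was at 19.6 CPM (47 UMIs in 22 cells) against 1.28 CPM, whereas Chrne, which replaces it in adult muscle, was at 2.50 CPM (6 UMIs in 6 cells) against 5.54 CPM. 3' UMI counts do not scale with transcript length, and capture still differs between genes. Rapsn, which clusters the receptor, was at 9.17 against 0.947 CPM, and Musk, the kinase that organises the synapse, at 3.33 against 2.14 CPM.

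Sarcomere genes were abundant. Myl1 and Mylpf, light chains of fast muscle myosin, were at 2532 and 2585 CPM against 4.57 and 13.4 CPM. Acta1, the actin of adult skeletal muscle, was at 2252 against 1.63 CPM. In the thick filament list 10 of 17 and in the thin filament list 14 of 18 measured members were at least 2-fold higher. Among troponins, the fast-muscle forms Tnnt3, Tnnc2 and Tnni2 were at 343, 328 and 162 CPM, and the slow-muscle forms Tnni1, Tnnt1 and Tnnc1 at 150.02, 46.7 and 4.17 CPM. Of the myosin heavy chains, Myh1 (fast) was at 101 CPM and Myh4 (fast) at 62.1 CPM, but in 9 and 7 cells. The embryonic Myh3 was at 12.9 CPM and the slow Myh7 and its light chain Myl2 had 0 UMIs.

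In the Z-disc and titin list 10 of 16, in the calcium list 14 of 20, in the energy list 7 of 11, and in the dystrophin list 3 of 8 measured members were at least 2-fold higher. Sln, which inhibits the calcium pump, was at 768 against 5.49 CPM, but it had UMIs in 5 of 7 samples and exceeded other cells in 4. Ryr1, the calcium release channel of skeletal muscle, was at 99.2 against 1.54 CPM, and Atp2a1, the fast-muscle calcium pump, at 112 against 3.63 CPM. The heart channel Ryr2 was lower, at 2.92 against 7.77 CPM. Cacna1s, the voltage sensor that opens Ryr1, was at 0.833 against 23.4 CPM, and it was highest in Ciliated cells (513 CPM). Dmd, which encodes dystrophin, was at 10.0 against 32.5 CPM.

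The 20 genes with the largest ratios were led by Acta1 (855-fold), Myl1 (455-fold), Meg3 (214-fold), Actc1 (194-fold) and Mylpf (179.9-fold), and some were outside the lists. Meg3, a long non-coding RNA expressed from the maternal copy of its imprinted locus, was at 568 against 1.66 CPM in 32.2% of Muscle and 1.09% of other cells. Rian, from the same imprinted cluster, was at 131 against 2.02 CPM. Cnr1, a cannabinoid receptor, was at 58.3 against 0.489 CPM and Cox8b, a subunit of cytochrome oxidase in muscle, at 236 against 4.24 CPM. Klhl41, which stabilises sarcomere proteins, was at 250.5 against 1.66 CPM. In a list of 26 imprinted genes made after values were seen, 25 had at least 10 UMIs. Of these, 12 were at least 2-fold higher in Muscle cells, 5 were at 0.5 of the other cells' level or less and 8 lay between, with a median log2 ratio of 0.91. Over all 28119 genes with that many UMIs, 1221 (4.34%) were at least 2-fold higher and 5252 at 0.5 or less. The list holds Meg3 and Rian, already picked as leading genes, so its counts are not a result about imprinted genes. Cdkn1c, a cell cycle inhibitor, was at 6536 against 190.5 CPM, Dlk1 at 462 against 11.7 CPM in 19 cells, and H19 at 153 against 1.43 CPM in 9 cells. Plagl1 was at 27.1 against 128 CPM and Phlda2 had 0 UMIs.

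In mm10 (GENCODE release 21), Myog (ENSMUSG00000026459.5) is at chr1:134289989-134292548 on the plus strand and Acta1 (ENSMUSG00000031972.5) at chr8:123891769-123894751 on the minus strand. Myogenic factors bind E-boxes, of which CAGCTG is a common form, and MEF2 and serum response factor bind the MEF2 site and the CArG box. These motifs were searched on both strands of RefSeq promoter windows, in which 84 of the 122 list genes had an entry. A window (GRCm38.p6) runs from 250 bases before to 50 after a start given by RefSeq. CAGCTG was in 35 of 108 list windows (32.4%) and in 16.3% of all 32851 windows. E-boxes of any form, CANNTG with N as any base, were nearly as common in all windows (72.3%) as in list windows (75.9%). The CArG box was in 7.41% and 1.63%, and the MEF2 site in 12.04% and 3.19%. Windows of Chrna1, the receptor marker, and of Acta1 and Mylpf, among the leading genes, are shown because they carry these motifs, with CAGCTG and the CArG box in capitals.
Chrna1 (chr2:73580289-73580588, minus strand, CAGCTG at -92 and -44): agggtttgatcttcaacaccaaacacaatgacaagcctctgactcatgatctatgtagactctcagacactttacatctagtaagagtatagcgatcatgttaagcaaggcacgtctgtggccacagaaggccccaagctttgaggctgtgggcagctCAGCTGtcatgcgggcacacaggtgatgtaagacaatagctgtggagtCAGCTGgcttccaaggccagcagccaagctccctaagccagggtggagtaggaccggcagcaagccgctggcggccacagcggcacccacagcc
Acta1 (chr8:123894726-123895025, minus strand, CAGCTG at -221 and CArG box at -73): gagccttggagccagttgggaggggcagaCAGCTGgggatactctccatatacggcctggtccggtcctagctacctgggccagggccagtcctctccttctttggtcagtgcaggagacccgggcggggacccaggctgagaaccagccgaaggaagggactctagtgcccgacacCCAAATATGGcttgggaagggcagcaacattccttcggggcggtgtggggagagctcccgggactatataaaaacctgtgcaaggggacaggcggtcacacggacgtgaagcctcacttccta
Mylpf (chr7:127211358-127211657, plus strand, CAGCTG at -51): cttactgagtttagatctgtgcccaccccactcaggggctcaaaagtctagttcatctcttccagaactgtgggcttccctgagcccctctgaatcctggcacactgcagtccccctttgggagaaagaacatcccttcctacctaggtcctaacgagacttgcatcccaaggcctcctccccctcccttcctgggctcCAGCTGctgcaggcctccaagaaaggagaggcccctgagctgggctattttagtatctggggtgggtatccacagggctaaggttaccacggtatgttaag
Positions are bases from the RefSeq start of the window, negative before it. That start can differ from the GENCODE one: the Mylpf window lies inside the GENCODE gene, which begins at chr7:127208890. The Myog window (chr1:134289754-134290053) held no exact match to the CAGCTG, MEF2 or CArG patterns searched. It held 2 E-boxes of the general form CANNTG. A site that departs from a searched pattern is not counted, so the search does not exclude a MEF2 site in this window. A match is a description of letters, not of binding.

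Muscle cells kept epithelial transcripts. Epcam, a surface protein of epithelium, was at 681 and 941 CPM and in 98.3% of Muscle cells, and Krt8, a keratin of simple epithelium, at 777 and 1676 CPM in 98.3%. Of 15 medullary genes, 9 were at 0.5 of the other cells' level or less and 2, Pax1 and Pax9, at least 2-fold higher. Over all 28119 genes with at least 10 UMIs, these counts were 5252 and 1221. MHC class II genes were low. Cd74, the invariant chain, was at 1248 against 4817 CPM and H2-Aa at 393 against 1512 CPM. Markers of other cells that the sort could hold were counted in lists of 6. Of the endothelial and pericyte list, Cdh5 and Kdr had 0 UMIs in Muscle cells, while Rgs5 had 133 UMIs in 24 cells and Pecam1 5. Its summed level ranged from 0 to 343 CPM in control and from 14.3 to 121 CPM in mutant samples. Of the myeloid and B list, Csf1r, Itgam and Ms4a1 had 0 UMIs, Lyz2 had 56 in 11 cells, and Cd68 and Cd79a had 4 each. Its summed level ranged from 0 to 87.4 CPM and from 1.26 to 22.6 CPM. Of the fibroblast list, Col1a1 and Col1a2 had 0 UMIs and Dcn had 9, with sums of 0 to 67.4 CPM and 0 to 7.58 CPM. Of the thymocyte list, Cd3d, Cd8a and Rag1 had 0 UMIs and Cd4 and Lck 3 each, with sums of 0 to 1.59 CPM and 0 to 11.3 CPM. Over all Muscle cells each of these lists had a lower sum than over other cells, the nearest in ratio being 2.92 against 7.58 CPM for thymocyte markers. Of 8 cell cycle genes 6 were at 0.5 of the other cells' level or less (5252 of 28119 over all genes), with Mki67 at 3.33 against 29.4 CPM.

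The hash tag antibody binds H2-Kb, an MHC class I protein, and so gives a surface measure; nothing in the files says that the classes used it. Median tag UMIs per Muscle cell were 1971, 2320 and 1157 in control samples 1 to 3 and 1068.5, 1139, 511 and 1760 in mutant samples 1 to 4. In other cells of the same samples they were 1622, 1684 and 1037.5, and 878.5, 1167, 468 and 1553. Muscle cells bound more tag in 6 of 7 samples, at 1.16 times the level of other cells (mean log2 difference 0.21 ± 0.16, SD, n = 7, two-sided exact sign-flip permutation p = 0.0312). Per RNA UMI of the cell, they bound less in 7 of 7 samples, at 0.738 times the level (mean log2 difference -0.44 ± 0.16, SD, n = 7, exact sign-flip permutation p = 0.0156, the smallest that 7 samples allow). Both p-values were 0.0312 after Benjamini-Hochberg adjustment over these 2 measures. The divisor of the second measure was itself higher in Muscle cells in each sample. Median RNA UMIs were, for example, 13790.5 against 12679 in mutant sample 2 and 20056 against 12003 in control sample 2. The second measure therefore cannot tell tag from depth. Tuft cells were 4118 of the 9064 other cells and had a median of 887 tag UMIs over all samples. Muscle cells, at 1176, ranked 10th of the 15 classes, below classes such as Ciliated (1803) and Keratinocyte (1393). The transcript of the antigen, H2-K1, was at 1728 against 2965 CPM.

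Muscle cells differed widely in their contractile transcripts. These were summed over 31 thick and thin filament genes, leaving out Tpm1, Tpm2, Tpm3, Tnnt2 and Actn3, which over 20% of other cells also had. A Muscle cell held 0 to 2122 UMIs of the set, with a median of 11 and quartiles of 1 and 202. 57 cells had at least 20, 14 had 5 to 19 and 50 had under 5, of which 17 had none. The 12 richest cells held 62.7% of the set's 24250 UMIs. The ranges are parts of a continuous spread, with 6 cells between 15 and 24 UMIs. Median depth was 20056 UMIs in cells with at least 20, 17656 in those between and 17511.5 in those with under 5.

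**Figure D4:**
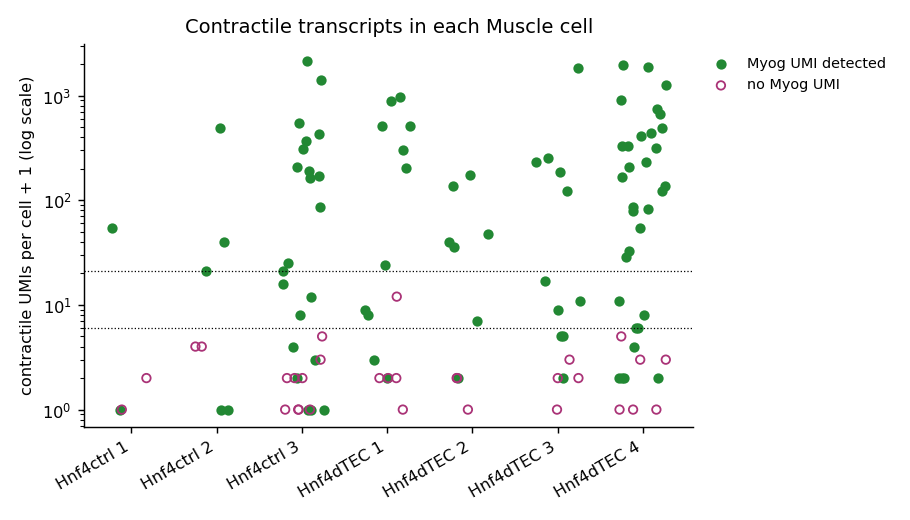
Contractile UMIs plus 1 (y axis, log scale) in each of the 121 Muscle cells, by sample (x axis, with random offset). Filled points had a Myog UMI and open points had none, and dotted lines mark 5 and 20 UMIs; all 57 cells above the upper line had Myog, against 20 of the 50 below the lower line.

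Myog was detected in 57 of 57 cells with at least 20 contractile UMIs, in 13 of 14 with 5 to 19 and in 20 of 50 (40%) with under 5, at 2353, 1464 and 582 CPM. Several genes outside the set had the same order. Mef2c was at 173, 17.0 and 7.47 CPM, Mymx at 367, 59.4 and 22.4 CPM, Ttn at 941, 72.1 and 9.61 CPM, and Chrna1 at 57.9, 8.48 and 6.40 CPM. Mymk and Myf6 had UMIs in cells with at least 20 and none in the rest. Cdkn1c was at 11248, 3466 and 1139 CPM, and Meg3 at 1086, 50.9 and 20.3 CPM. Rbm24 did not follow the order, at 380, 585 and 242 CPM, and was present in 35 of the 50 cells with under 5.

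**Figure D5:**
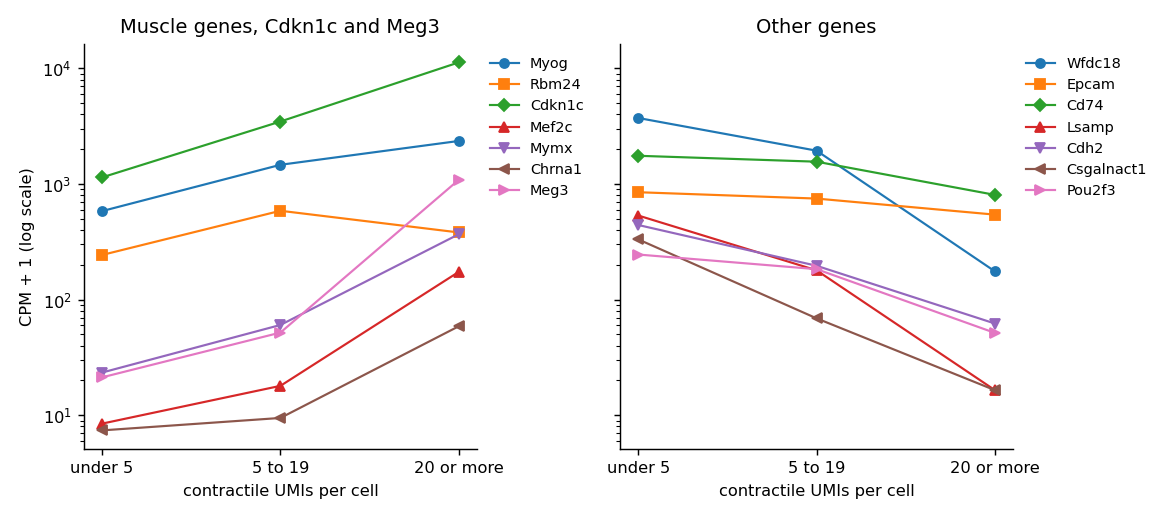
Level of 14 genes as CPM + 1 (y axis, log scale) in Muscle cells grouped by contractile UMIs (x axis). Left, muscle genes with Cdkn1c and Meg3, of which Cdkn1c climbs from 1139 to 11248 CPM; right, other genes, of which Wfdc18 goes from 3718 to 174 CPM.

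Cells with few contractile UMIs had more of several genes that other classes express. Of those below, Wfdc18, St18, Cdh2 and Csgalnact1 were picked by hand, so they do not stand for all genes. Wfdc18, a secreted whey-acidic protein, had a median over cells of 63.1 CPM in those with at least 20 contractile UMIs and 387 CPM in those with under 5. Its summed levels, 174 and 3718 CPM, were further apart. Also as medians over cells, Pou2f3, the master factor of tuft cells, was at 26.0 and 188 CPM, and St18 at 0 and 110 CPM. The tuft markers Trpm5, Avil and Dclk1 had medians of 0 in both ranges. Cdh2, a cadherin, had medians of 26.0 and 242 CPM and Csgalnact1, a chondroitin enzyme, 0 and 144 CPM. Cd74 was at 804 and 1751 CPM and Epcam at 542 and 847 CPM as summed levels.

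Each sample held cells of both ends. The share of Muscle cells with at least 20 contractile UMIs was 25%, 42.9% and 41.9% in control samples 1 to 3 and 43.8%, 50%, 33.3% and 60.5% in mutant samples 1 to 4. The groups overlapped, with means of 36.6 ± 10.1% (SD, n = 3) and 46.9 ± 11.4% (SD, n = 4). The difference did not pass (two-sided exact permutation p = 0.286, adjusted p = 0.571 over 4 measures).

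Contractile transcripts were also found outside the class. At least 20 UMIs of the set were in 93 of 9064 other annotated cells (1.03%), of which 52 were Aire-expressing (6.62% of that class) and 18 Ciliated (9.14%). Among cells with at least 20, Muscle cells had a median of 10 genes of the set and the other cells a median of 3. The leading gene gave a median of 48.7% of the set's UMIs in these Muscle cells and 82.1% in the other cells. Myog was in 100% of the Muscle and 14.0% of the other cells. In the 52 Aire-expressing cells, Myl3 led in 8, Mylpf in 8, and Tnni1 and Tnnt3 in 6 each. Myl3, a light chain of slow muscle and heart, had 1 UMI in all Muscle cells.

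The last question was whether gene levels in Muscle cells differed between genotypes. The targeted genes were scarce in this class. Hnf4g, a nuclear receptor of gut and liver programs, had 13 UMIs (5.42 CPM, against 97.3 CPM in other cells), 5 in control and 8 in mutant samples. Hnf4a, its relative, had 1 UMI, in mutant sample 1. The labels do not say which exons the alleles lack, so 3' UMIs do not check the deletion.

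UMIs were summed per sample over the 6 samples with at least 5 Muscle cells, which left out control sample 1 and set 2 control against 4 mutant samples. Of 5778 genes tested, 0 were higher and 1 lower in mutant samples by edgeR at an adjusted p under 0.05 (0.0173% of genes), while 207 had an unadjusted p under 0.05, and DESeq2 called 1. None of the 56 tested members of the muscle lists was called by either tool. Their median log2 fold change was 0.22, against 0.01 over all genes tested. This median was 1.24 without control sample 3, which leaves 1 control sample, and -0.38 with a replicate block. The log2 fold change of Myog was 0.09 with an SE of 0.21, which did not pass (edgeR adjusted p = 1.00), and for Acta1 the SE was 1.53.

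Spock3, which encodes a secreted proteoglycan of the testican family, was the gene called. Its position is chr8:62951009-63357103, plus strand. It was at 82.1 and 141 CPM in control samples 2 and 3 and at 9.55, 16.9, 10.7 and 2.53 CPM in mutant samples 1 to 4. Its log2 fold change of mutant over control was -3.94 (SE 0.48, edgeR adjusted p = 0.00428). Control sample 1, outside the test, had 0 UMIs of it. The control UMIs sat in few cells: 11 UMIs in 1 of 7 cells of sample 2, and 89 UMIs in 6 of 31 cells of sample 3. Other classes had more of it, 271 CPM over all other cells and 1305 CPM in Aire-adjacent cells. Without control sample 3, which leaves 1 control sample, the log2 fold change was -3.21 (edgeR adjusted p = 0.788). With the replicate block it was -3.10 (edgeR adjusted p = 0.278).

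3 other genes, chosen after their values were seen, did not overlap between the genotypes over all 7 samples and were not called. Of the 5778 genes tested, 368 (6.37%) had no such overlap. 2 of them belong to antigen presentation. Cd74 was at 2588, 1336 and 2006 CPM in control samples 1 to 3 and at 872, 779, 554 and 1003 CPM in mutant samples 1 to 4, and its log2 fold change, -1.06 with an SE of 0.24, had an edgeR adjusted p of 0.614. H2-Aa was at 647, 381 and 671 CPM and at 299, 254, 236 and 273 CPM, and its log2 fold change of -1.02 with an SE of 0.23 had an edgeR adjusted p of 0.406. Of 7 tested members of the antigen presentation list, 0 passed in edgeR. Cdkn1c was at 1146, 3269 and 5028 CPM in control and at 5846, 7302, 6624 and 8866 CPM in mutant samples, and its log2 fold change of 0.78 with an SE of 0.25 had an edgeR adjusted p of 1.00. The share of cells rich in contractile UMIs, in which Cdkn1c is high and Cd74 low, was 25% to 42.9% in control and 33.3% to 60.5% in mutant samples, and its part in these values was not tested.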

How the data were processed

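The matrix deposited by the authors holds raw UMI counts per gene and antibody tag in 18089 droplet barcodes, with 55487 genes and 15 tags. Build mm10, Cell Ranger 6.1.0 and Seurat 4.0.2 are listed in the submitters' processing notes, but the header of the matrix has Cell Ranger 7.0.0. A cell table, also deposited, gives sample and class of 9185 barcodes, and how either was assigned is not given in the sources used here. All annotated cells were kept, and a second library of hash tags belongs to no group. Depth in Muscle cells ran from 74182 UMIs in control sample 1 to 791369 in mutant sample 4. Scrublet (scanpy 1.11.5) marked 168 annotated cells as doublets (1.83%), and in 45 the strongest tag was another sample's.

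CPM are UMIs summed over cells and scaled to 1000000, without TMM. Ratios add 1 CPM. Genotypes were compared in edgeR 4.0.16 (R 4.3.3, quasi-likelihood test) on sums per sample, after its low-count filter and TMM, with Benjamini-Hochberg adjustment over all genes; shares used class counts. DESeq2 1.42.0, other filters, normalisation and cell minimums, and each sample left out, were alternatives. The edgeR test was also run on simulated counts with 4-fold changes in 162 genes, of which it recovered 82.1%, with 5 false calls. That simulation used the same fixed dispersion for every gene, so it does not give the power of the test in these samples. Genes named are muscle list members, called genes (at most 10 each way), the targeted genes and the 20 of highest ratio. Those 20 are among genes in at least 25% of Muscle cells with at least 50 UMIs. Members of the other lists, such as cell type markers and imprinted genes, are named too. Wfdc18, St18, Lsamp, Cdh2 and Csgalnact1 are outside these sets and were picked by hand. Members and lists were chosen with earlier results of these data known. Gene positions are from GENCODE release 21 and promoter windows from RefSeq. Some items are not reported here.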

Additional observations from a re-analysis of the deposited data

Results flagged for a closer look

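With 4 mutant samples, a sample whose distance from its neighbour exceeded 0.829 of the group's range was taken as standing apart. Of 27 measures examined this way 4 had such a sample, and chance gives about 1 in 20. The share of Muscle cells was 2.77% in mutant sample 4, far above the other 3 mutant samples. Median UMIs per Muscle cell were 13790.5 in mutant sample 2, below the other 3. Mylpf was at 62.1 CPM in mutant sample 2, whose 10 Muscle cells also had 5.64 CPM of Acta1 and 11.3 CPM of Ckm. Meg3 was at 719 CPM in mutant sample 4.

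Among the 8904 barcodes without annotation, which no comparison used, 127 had at least 20 contractile UMIs. Of these, 77 (60.6%) had a pair of strong hash tags, against 34.0% of all barcodes without annotation. Myog was found in 58 of the 127, and 61 had at least 5 genes of the set.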

How the results depend on the processing

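The genotype difference in the share of Muscle cells did not pass in any of its 11 alternatives (adjusted or exact p from 0.372 to 0.996). Its log2 fold change turned to -0.24 with a replicate block, and leaving out each sample gave -0.38 to 1.07, with -0.09 without control sample 1 and -0.38 without mutant sample 4. The number of genes called by genotype was 1 in 7 of 13 alternatives. It was 38 without a filter on low counts (12 higher, 26 lower), 4 with a minimum of 10 cells, which is the same fit as without control sample 2, 0 with a minimum of 1 cell (edgeR, 198 genes at an unadjusted p under 0.05) and 0 with the replicate block (215 genes). Leaving out each sample gave 0 to 4, with 0 without control sample 3 and 4 without control sample 2. Either leaves 1 control sample, which is assumed to vary like the mutant samples. Same-numbered samples 2 and 3 correlated at 0.11 and -0.03 in their deviations from the group means. With only 2 control samples in the fit, the control deviations mirror each other. The correlations therefore cannot decide whether same-numbered samples share more than a number. Spock3 was not tested under the minimum of 1 cell. The median log2 ratio of the 6 markers stayed between 4.42 and 5.27 in its 10 alternatives. Cutting the contractile set at 10 or 50 UMIs, chosen after seeing the data, gave mutant minus control differences of 11.6 to 13.7 percentage points. The values of control samples 1 and 2 rest on 4 and 7 Muscle cells.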
